A study of Mus musculus with 6 samples.

Results

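Amino acid transporter genes were examined in RNA of whole testes from 12-week-old mice, measured on 6 Affymetrix arrays. The genes were chosen by name: a gene counted when its symbol in the array annotation began with Slc1a, Slc3a, Slc6a, Slc7a, Slc36a, Slc38a or Slc43a, and it was read at its brightest probe set that carried a single symbol. This gave 63 of the 18194 genes measured. In 3 of the 63 the symbol ends in "os" (Slc7a6os, Slc6a19os and Slc36a1os), which marks a gene on the opposite strand of a transporter gene and not a transporter, so 60 were transporter genes. The SCARKO-jsd group (3 arrays) came from mice that combine the jsd mutation with a conditional knockout targeted to Sertoli cells, which nurse the germ line. The jsd group (3 arrays) carried the jsd mutation of Utp14b alone. Both groups thus share this mutation, under which spermatogonia persist beside Sertoli cells while later germ cells are scarce. The labels name neither the Cre driver nor the strain. Nothing in the labels ties an array to a named animal, so the p-values describe the spread among these samples, which may be technical in part.

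Amino acid transporters move amino acids and related solutes across membranes, each family with its own driving force. Most members of Slc1a, Slc6a and Slc38a couple uptake to sodium, Slc36a to protons, Slc43a members let their substrate run down its gradient, and many Slc7a light chains exchange one amino acid for another once bound to a heavy chain of the Slc3a family. In the testis, Sertoli cells form the barrier that separates most germ cells from blood, so that nutrients reach those germ cells through them. Slc6a also holds carriers of neurotransmitters, taurine and creatine, which are counted here by name.

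Values were log2 expression after RMA, the deposited unit, and each difference is SCARKO-jsd minus jsd. A gene was tested when its mean over the 6 arrays exceeded 6.64, the limit under which the dimmest 40% of genes lie; 31 members were tested and 32 were too dim. Across all 10916 genes tested, 3.57% passed the limma test, whose threshold throughout was a Benjamini-Hochberg adjusted p of 0.05, with a median standard error of 0.11 for the log2 fold change. Rhox5, an androgen-dependent homeobox gene of Sertoli cells, was at 5.44, 6.11 and 5.84 in SCARKO-jsd 1, 2 and 3, against 10.26, 10.43 and 9.74 in jsd 1, 2 and 3, so both groups stood apart on it. One array, SCARKO-jsd 2, stood apart. Across all probe sets it correlated with the rest at 0.965 to 0.975, against 0.991 to 0.996 among the others, where probe sets are not independent replicates. For beta-actin, the control probe set for the 3' end was brighter than that for the 5' end by 1.66 log2 units there, against 0.70 to 0.98 in the other 5 arrays. It was also the highest of the 6 arrays for 16 of the 31 tested members (51.6%), as it was for 48.7% of all genes tested. Results are therefore given with and without it where it matters.

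Slc7a4 and Slc6a8 fell in SCARKO-jsd testes, each about to the same extent, and Slc43a2 rose on its brightest probe set. Slc7a4 belongs by sequence to the carriers of cationic amino acids, although its own substrate is not established, Slc6a8 carries creatine into cells, and Slc43a2 lets large neutral amino acids pass. These 3 of 31 tested members (9.68%) passed the test, against 3.57% of all genes tested, and 28 did not pass. By direction, 1 member rose, against 1.78% of all genes tested, and 2 fell, against 1.8%. With so few members called, these shares are given as a description and no more is read from them. The median log2 fold change was 0.03 over the 31 members and 0.04 over all genes tested, and 17 members had a positive and 14 a negative value. Without SCARKO-jsd 2 the split turned to 13 positive and 18 negative, with a median of -0.07 over the members and 0.003 over all genes tested, and 4 members passed (12.9%), against 7.04% of all genes tested.

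**Figure D1:**
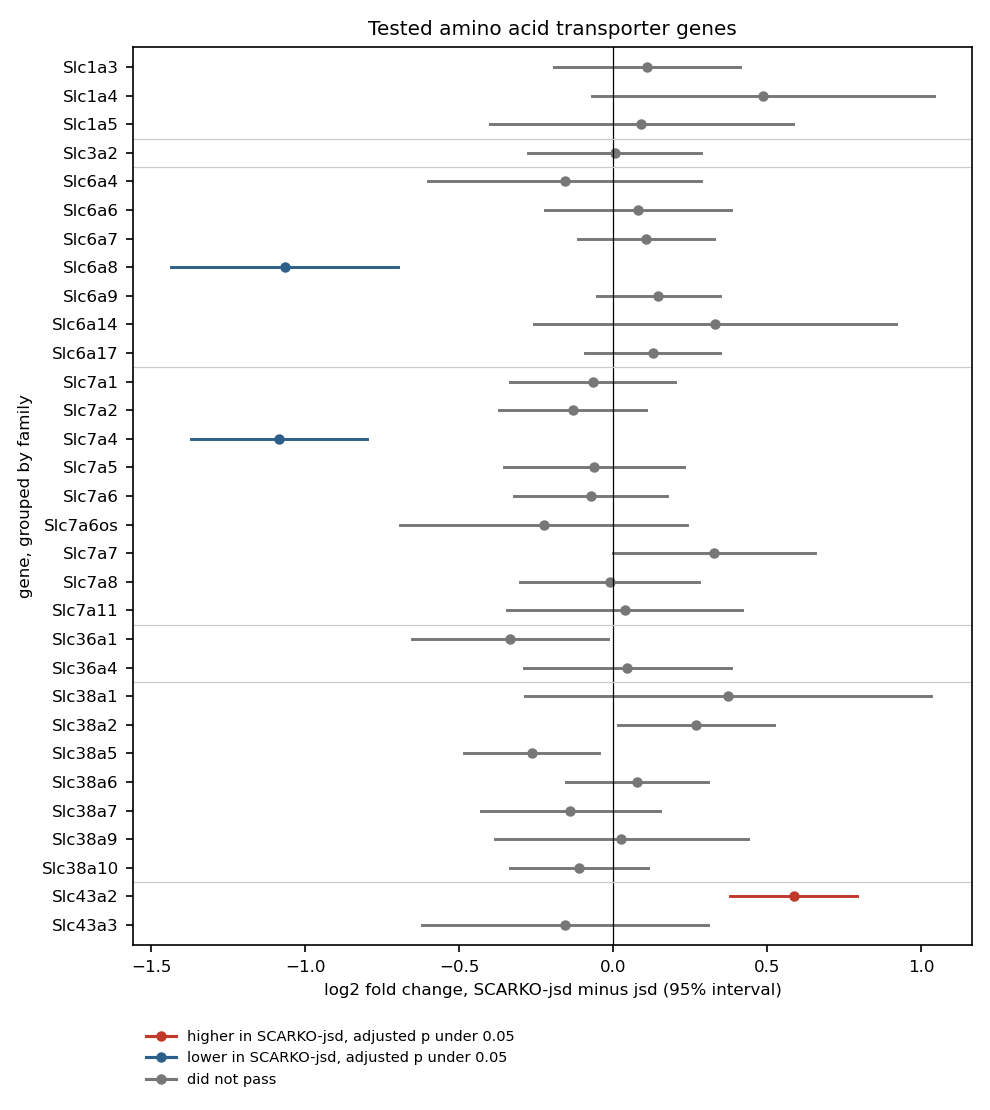
Log2 fold change of each of the 31 tested genes, SCARKO-jsd minus jsd (horizontal axis), with its 95% interval from limma, grouped by family down the page. Each gene is read at its brightest probe set. Slc6a8 and Slc7a4 lie below 0 and Slc43a2 above it, while for 26 of the other 28 genes the interval stays within a 2-fold change in either direction.

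Slc7a4 (chromosome 16) had the smallest p of the 31 members. On its brightest probe set, 1426068_at, log2 expression was 10.12, 10.15 and 10.33 in SCARKO-jsd 1, 2 and 3, against 11.40, 11.40 and 11.06 in jsd 1, 2 and 3. All SCARKO-jsd arrays lay below all jsd arrays, by more than the spread within either group. The means were 10.20 ± 0.12 in SCARKO-jsd testes and 11.29 ± 0.20 in jsd testes (SD, n = 3 each), 2.12-fold lower, with a log2 fold change of -1.09 ± 0.12 (SE) and a limma Benjamini-Hochberg adjusted p of 0.00542. The other probe sets of the gene gave like values. On 1426069_s_at the log2 fold change was -0.997 and on 1436776_x_at it was -1.06, and with every probe set tested by itself the limma adjusted p was 0.0203, 0.0138 and 0.0221 for the 3 probe sets in the order named. Its call held with each array left out in turn, where the adjusted p reached at most 0.0410, and in each of 9 other settings tried, where it reached at most 0.0203.

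Slc6a8 (chromosome X) differed by a like amount but with more spread. Log2 expression on 1417116_at was 8.15, 8.63 and 8.29 in SCARKO-jsd 1, 2 and 3, against 9.62, 9.19 and 9.47 in jsd 1, 2 and 3. No array of one group reached the other, though SCARKO-jsd 2 was the highest of its own group and jsd 2 the lowest of its own. The means were 8.36 ± 0.25 in SCARKO-jsd testes and 9.43 ± 0.22 in jsd testes (SD, n = 3 each), 2.10-fold lower, with a log2 fold change of -1.07 ± 0.16 (SE; limma, Benjamini-Hochberg adjusted p = 0.0141). The second bright probe set, 1448596_at, read 6.91, 7.51 and 6.95 in SCARKO-jsd 1, 2 and 3, against 8.39, 8.20 and 7.72 in jsd 1, 2 and 3. There too the groups did not overlap, and its log2 fold change of -0.98 ± 0.23 (SE) missed the threshold (limma adjusted p = 0.116 among single probe sets). The call of Slc6a8 ended without jsd 1 (limma adjusted p = 0.0798), jsd 3 (0.0526) or SCARKO-jsd 3 (0.0681), while the log2 fold change stayed between -1.20 and -0.96 with each array left out. Without SCARKO-jsd 2 it was -1.20, with an adjusted p of 0.00228.

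Slc43a2 (chromosome 11) gave opposite answers on its bright probe sets. On 1439965_at, the brightest, log2 expression was 9.79, 9.78 and 9.65 in SCARKO-jsd 1, 2 and 3, against 9.19, 9.07 and 9.21 in jsd 1, 2 and 3. These groups did not overlap, with means of 9.74 ± 0.08 in SCARKO-jsd testes and 9.16 ± 0.07 in jsd testes (SD, n = 3 each), 1.5-fold higher (log2 fold change 0.59 ± 0.09 SE; limma, Benjamini-Hochberg adjusted p = 0.0156). On 1434308_at the values were 7.45, 7.85 and 7.29 in SCARKO-jsd 1, 2 and 3, against 8.22, 8.18 and 8.09 in jsd 1, 2 and 3. Here each SCARKO-jsd array lay below each jsd array, and the log2 fold change was -0.63 ± 0.15 (SE; limma adjusted p = 0.121 among single probe sets). Its remaining probe set, 1456940_at, lay under the dim limit, at a mean of 3.99. With the mean of all its probe sets, the log2 fold change of Slc43a2 was 0.02 and its call ended (limma adjusted p = 0.928), so a rise of the gene as a whole was not shown. The call also ended without jsd 1 (adjusted p = 0.0848) or jsd 2 (0.0926), and held without SCARKO-jsd 2 (0.57, adjusted p = 0.0116). Which transcripts each probe set reads was not tested.

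**Figure D2:**
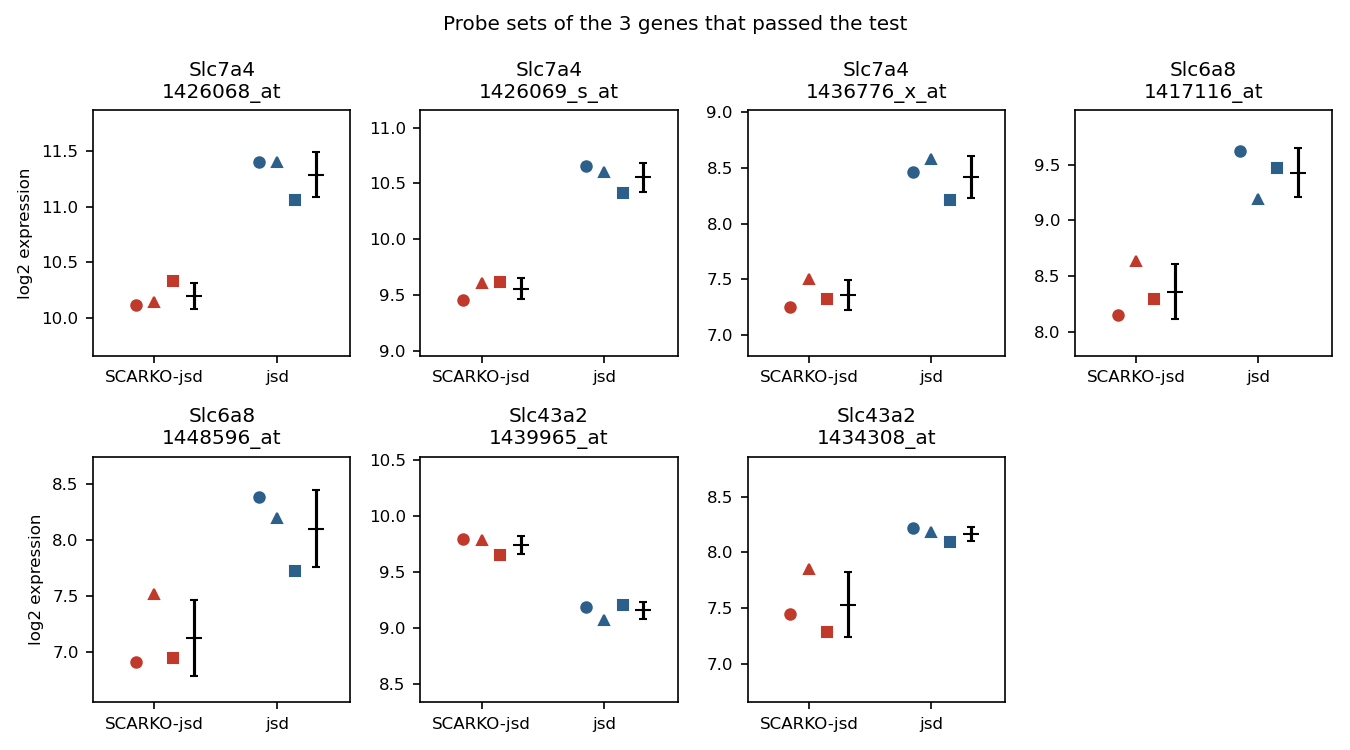
Log2 expression per array (vertical axis) for each bright probe set of Slc7a4, Slc6a8 and Slc43a2, with SCARKO-jsd arrays in red at the left and jsd arrays in blue at the right of each panel (circle, triangle and square for replicates 1, 2 and 3; black bars show mean and SD). All 3 probe sets of Slc7a4 and both of Slc6a8 are lower in SCARKO-jsd, while Slc43a2 is higher on 1439965_at (9.74 against 9.16) and lower on 1434308_at (7.53 against 8.17).

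RefSeq (GRCm38.p6) annotates Slc43a2 with a pair of start sites, 418 bases apart. The 250 bases before each are shown as a description of the gene. Whether the start sites bear on the disagreement of its probe sets was not tested. The array values do not say which start was used.
Slc43a2 first start, chr11:75531444-75531693, plus strand: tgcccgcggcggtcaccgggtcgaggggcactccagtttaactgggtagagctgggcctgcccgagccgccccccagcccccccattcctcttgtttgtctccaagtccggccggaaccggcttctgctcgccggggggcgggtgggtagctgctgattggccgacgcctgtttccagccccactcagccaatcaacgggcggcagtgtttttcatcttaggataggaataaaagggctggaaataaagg
Slc43a2 second start, chr11:75531862-75532111, plus strand: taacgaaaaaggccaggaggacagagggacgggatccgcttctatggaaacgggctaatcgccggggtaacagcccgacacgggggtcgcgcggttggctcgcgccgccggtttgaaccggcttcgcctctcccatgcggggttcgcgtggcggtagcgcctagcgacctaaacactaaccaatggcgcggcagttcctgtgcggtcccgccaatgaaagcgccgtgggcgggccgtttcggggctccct
Both stretches are rich in G and C, at 62.8% for the first and 65.6% for the second. Neither holds a match to the amino acid response motif that is described with Slc7a11.

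**Figure D3:**
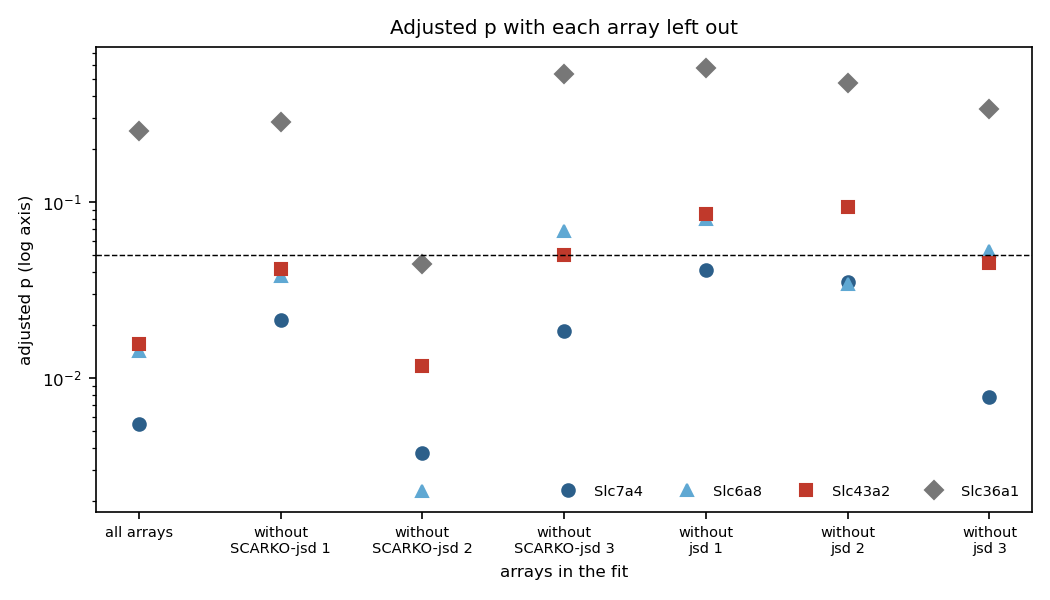
Benjamini-Hochberg adjusted p from limma (vertical log axis) for Slc7a4, Slc6a8, Slc43a2 and Slc36a1 with all arrays and with each array left out in turn (horizontal axis); the dashed line marks 0.05. Slc7a4 stays under the line throughout, Slc6a8 and Slc43a2 cross it for some left-out arrays, and Slc36a1 falls under it (0.0443) without SCARKO-jsd 2.

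The heavy chains form the base of the exchange system. Slc3a2, which escorts several Slc7a light chains to the cell surface, was at 12.92, 13.24 and 13.11 in SCARKO-jsd 1, 2 and 3, against 13.17, 13.17 and 12.91 in jsd 1, 2 and 3. The groups overlapped throughout their range. Its log2 fold change was 0.005 ± 0.12 (SE), with a 95% interval of -0.28 to 0.29 and a limma Benjamini-Hochberg adjusted p of 0.990. Slc3a1, the heavy chain that pairs with Slc7a9 in kidney and gut, was too dim to test, with means of 4.47 in SCARKO-jsd testes and 4.38 in jsd testes, and Slc7a9 was dim too.

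None of the light chains that pair with Slc3a2 passed the test. Slc7a5, a carrier of large neutral amino acids, was at 12.53, 12.90 and 12.53 in SCARKO-jsd 1, 2 and 3, against 12.76, 12.79 and 12.60 in jsd 1, 2 and 3, with overlapping groups. Its log2 fold change was -0.06, with a 95% interval of -0.35 to 0.23. Slc7a8, another carrier of neutral amino acids, had -0.01 (-0.30 to 0.28) and Slc7a6, which exchanges cationic for neutral amino acids, had -0.07 (-0.32 to 0.17). Slc7a7, which carries out the same kind of exchange, had the largest value of the light chains, 0.33 (0.0001 to 0.65). It read 8.52, 8.69 and 8.31 in SCARKO-jsd 1, 2 and 3, against 7.98, 8.40 and 8.16 in jsd 1, 2 and 3, so that jsd 2 lay above SCARKO-jsd 3. The limma Benjamini-Hochberg adjusted p was 0.278, and its other bright probe set gave 0.07.

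Slc7a11, the light chain that takes up cystine in exchange for glutamate, did not pass either. It was at 7.66, 8.06 and 7.53 in SCARKO-jsd 1, 2 and 3, against 7.66, 7.95 and 7.53 in jsd 1, 2 and 3, nearly the same set of values in both groups. The log2 fold change was 0.04, with a 95% interval of -0.34 to 0.42. Slc7a11 is a textbook target of ATF4, the transcription factor that answers amino acid shortage, and the 250 bases before its start site (RefSeq, GRCm38.p6) are shown because they hold this factor's motif. Capitals mark matches to TGATGNAA or its reverse complement TTNCATCA, the composite C/EBP-ATF response element, which were searched on both strands.
Slc7a11, chr3:50443614-50443863, minus strand: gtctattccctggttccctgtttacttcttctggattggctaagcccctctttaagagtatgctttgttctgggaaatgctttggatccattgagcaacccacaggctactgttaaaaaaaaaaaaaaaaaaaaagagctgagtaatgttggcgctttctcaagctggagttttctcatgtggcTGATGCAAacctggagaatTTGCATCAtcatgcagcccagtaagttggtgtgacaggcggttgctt
The matches begin 66 and 47 bases before the start site, one on each strand, and do not overlap. Of the 63 members, 46 had a window of 250 bases before to 50 after a start site in the RefSeq table, with 67 windows in all. The C/EBP-ATF motif lay in 5 of these windows (7.46%), of Slc1a4, Slc6a21, Slc7a11 and Slc7a7, against 3.97% of all 32851 windows, and of these genes Slc6a21 was dim and the other 3 did not pass the test. The windows of Slc7a7 overlap and share a match. Slc7a4 and Slc6a8 had no RefSeq window, so the motif was not searched for in them. A match is a description of the letters, not of a site in use.

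Among the carriers of cationic amino acids other than Slc7a4, Slc7a1 and Slc7a2, which take up arginine and lysine, did not pass. Slc7a1 was at 11.58, 11.97 and 11.71 in SCARKO-jsd 1, 2 and 3, against 11.87, 11.80 and 11.80 in jsd 1, 2 and 3. SCARKO-jsd 2 was the highest and SCARKO-jsd 1 the lowest of all 6 arrays, with the jsd arrays close together between them. Its log2 fold change was -0.07 (95% interval -0.33 to 0.20), with -0.20 on its other bright probe set, and that of Slc7a2 was -0.13 (-0.37 to 0.11). Slc7a4 thus differed from these relatives in that it passed the test, but the difference between the genes' changes was not itself tested. Slc7a3 was dim, at means of 4.67 in SCARKO-jsd testes and 4.86 in jsd testes.

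The sodium-coupled neutral amino acid carriers of the Slc38a family did not pass the test in any of 7 tested members, of which 2 had an unadjusted p under 0.05, against 18% of all genes tested. Slc38a5, which carries glutamine and has been listed among androgen-dependent genes of Sertoli cells, was at 9.94, 9.95 and 9.75 in SCARKO-jsd 1, 2 and 3, against 10.15, 10.20 and 10.07 in jsd 1, 2 and 3. Each SCARKO-jsd array lay below each jsd array, but by a small margin. The log2 fold change was -0.26 ± 0.09 (SE), with a 95% interval of -0.48 to -0.04 and a limma Benjamini-Hochberg adjusted p of 0.195, which lay between 0.0544 and 0.501 over the other settings tried. Slc38a2, which takes up small neutral amino acids and is induced when they run short, was at 11.40, 11.67 and 11.65 in SCARKO-jsd 1, 2 and 3, against 11.40, 11.33 and 11.19 in jsd 1, 2 and 3. SCARKO-jsd 1 exceeded jsd 1 by a hair, so the groups only just failed to overlap, and the log2 fold change was 0.27 ± 0.11 (SE; adjusted p = 0.248). Its other bright probe set gave -0.22.

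Slc38a1, another carrier of glutamine, had the largest standard error of the tested members, 0.28. It was at 9.55, 10.37 and 10.38 in SCARKO-jsd 1, 2 and 3, against 9.31, 10.19 and 9.68 in jsd 1, 2 and 3, so that replicate 1 was lowest in both groups. The log2 fold change was 0.37, with a wide 95% interval of -0.29 to 1.03, and -0.05 on its other bright probe set. Leaving out jsd 1 gave 0.16 and leaving out SCARKO-jsd 1 gave 0.65, while averaging both probe sets gave 0.16. The remaining family members lay near 0 on their brightest probe sets. They were Slc38a6 (0.08), Slc38a7 (-0.14), Slc38a9, which signals arginine from the lysosome to mTORC1 (0.03), and Slc38a10 (-0.11), and Slc38a3 and Slc38a4 were dim. Over 6 bright probe sets each, the values ran from -0.16 to 0.12 for Slc38a9 and from -0.41 to -0.002 for Slc38a10. The -0.41 came from 1429979_a_at, with an SE of 0.43, where SCARKO-jsd 2 lay far below the rest. That probe set read 7.61, 6.18 and 7.85 in SCARKO-jsd 1, 2 and 3, against 7.445, 7.95 and 7.48 in jsd 1, 2 and 3.

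**Figure D4:**
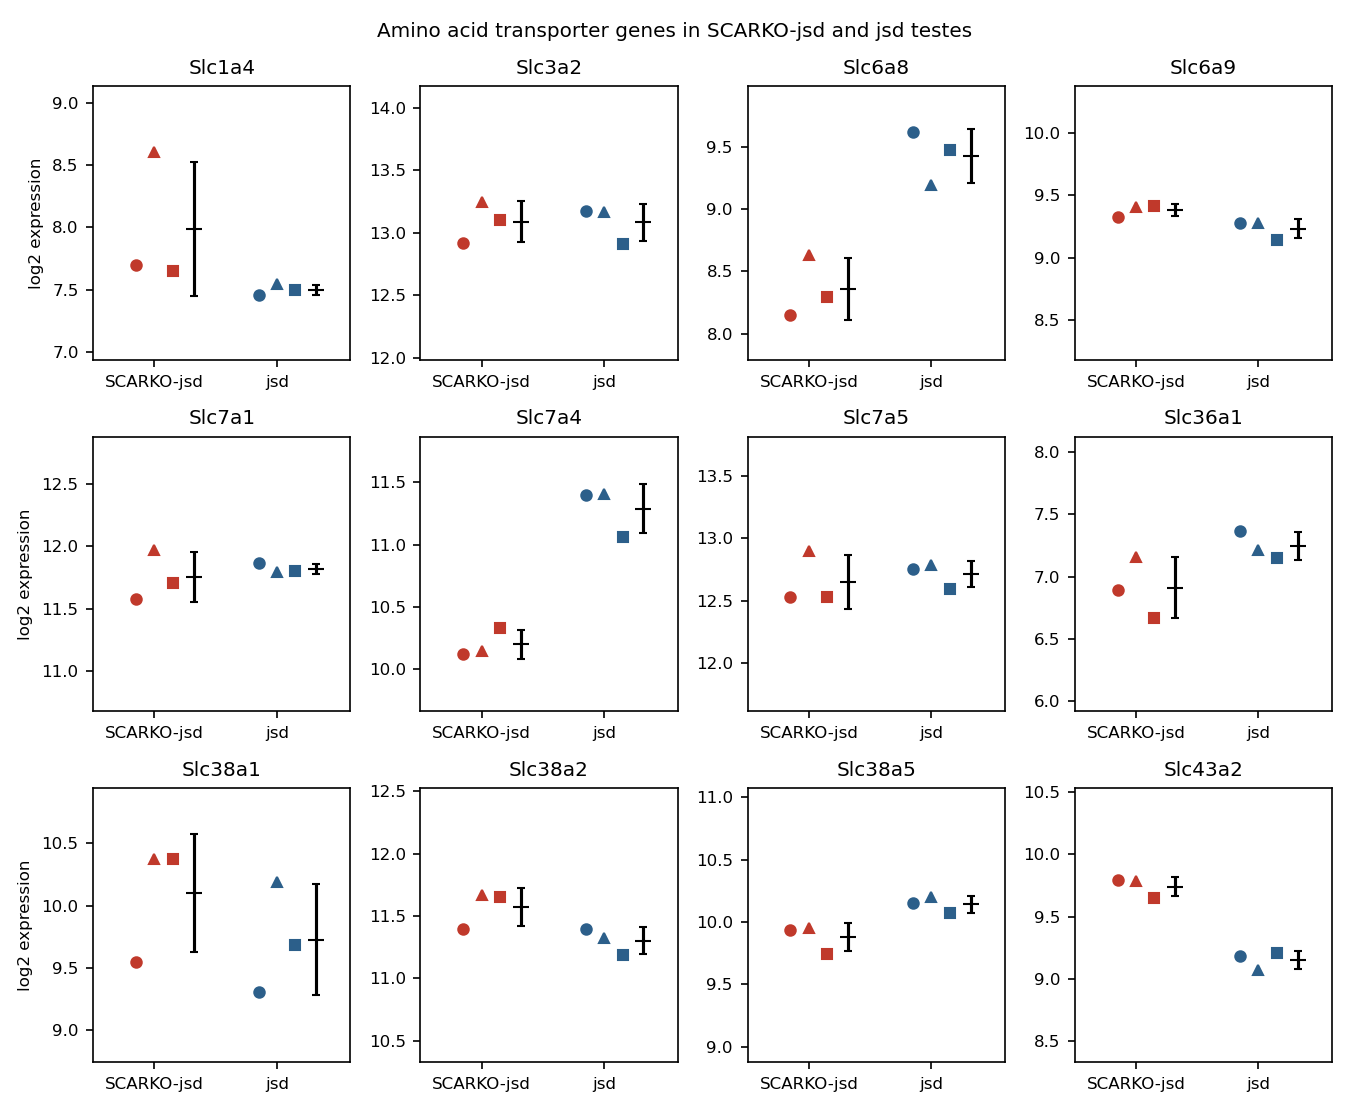
Log2 expression (vertical axis, spanning the same range of 2.2 units in each panel) in SCARKO-jsd arrays (red, left) and jsd arrays (blue, right) for 12 genes, with circle, triangle and square for replicates 1, 2 and 3 and black bars for mean and SD. Slc6a8, Slc7a4 and Slc43a2 show a clear gap between the groups, Slc38a5, Slc38a2, Slc6a9 and Slc1a4 a narrow one, and the triangle of SCARKO-jsd 2 lies far above the rest for Slc1a4 (8.605).

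In the Slc1a family of glutamate and neutral amino acid carriers, 3 of 7 members were tested and none passed, with 0 at an unadjusted p under 0.05 by limma. Slc1a4, which exchanges alanine, serine and cysteine, was at 7.70, 8.605 and 7.65 in SCARKO-jsd 1, 2 and 3, against 7.46, 7.54 and 7.49 in jsd 1, 2 and 3. The groups did not overlap, but SCARKO-jsd 2 lay far above both arrays of its own group. The log2 fold change of 0.49 (95% interval -0.07 to 1.04; limma, Benjamini-Hochberg adjusted p = 0.338) was 0.18 without that array. Slc1a5, the glutamine exchanger, had 0.09 (-0.40 to 0.58) and Slc1a3, which takes up glutamate, had 0.11 (-0.19 to 0.41). Slc1a6, a glutamate carrier of cerebellar neurons, was under the dim limit, with 6.17, 7.195 and 6.400 in SCARKO-jsd 1, 2 and 3, against 5.74, 5.55 and 5.39 in jsd 1, 2 and 3. It was the only dim member with a difference of at least 0.5 (1.03), SCARKO-jsd 2 was again the highest array, and with no filter on dim genes its limma adjusted p was 0.0834.

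Beyond Slc6a8, the Slc6a family of sodium- and chloride-coupled carriers had 6 tested members, and none of these passed. Slc6a9, a glycine carrier, was at 9.32, 9.40 and 9.41 in SCARKO-jsd 1, 2 and 3, against 9.27, 9.28 and 9.14 in jsd 1, 2 and 3. Its groups did not overlap, by a margin smaller than the spread within jsd, with a log2 fold change of 0.15 (95% interval -0.05 to 0.35) and -0.009 on its other bright probe set. Slc6a6, the taurine carrier, had 0.08 (-0.22 to 0.38), and -0.11 and -0.17 on its other bright probe sets. Slc6a14, a carrier of both neutral and cationic amino acids, had 0.33 (-0.26 to 0.92) on its brightest probe set, and 0.07 there without SCARKO-jsd 2. Its second, 1420504_at, read 7.12, 7.78 and 6.86 in SCARKO-jsd 1, 2 and 3, against 6.45, 6.36 and 6.21 in jsd 1, 2 and 3, without overlap (0.91; limma adjusted p = 0.136 among single probe sets). The values of Slc6a17, found on synaptic vesicles (0.13), the proline carrier Slc6a7 (0.11) and the serotonin carrier Slc6a4 (-0.16) were small. The other 14 members of the family, Slc6a19os included, were dim.

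The proton-coupled Slc36a family and Slc43a3 completed the tested members. Slc36a1, which exports small amino acids from lysosomes, was at 6.90, 7.16 and 6.67 in SCARKO-jsd 1, 2 and 3, against 7.37, 7.22 and 7.15 in jsd 1, 2 and 3. Here SCARKO-jsd 2 reached just above jsd 3, and it alone made the groups overlap. With all arrays the log2 fold change was -0.34 ± 0.14 (SE; limma, Benjamini-Hochberg adjusted p = 0.252). Without SCARKO-jsd 2 it was -0.46 and passed (adjusted p = 0.0443), as it did when arrays were weighted by their quality (-0.43, adjusted p = 0.0484). Slc36a4 (0.05) and Slc43a3, which carries nucleobases (-0.16), did not pass, nor did Slc7a6os (-0.23), which codes for a protein of its own.

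In all, the groups were fully separated on 7 of the 31 tested members (22.6%), against 24.6% of all genes tested. Of these, 4 were higher (Slc1a4, Slc6a9, Slc38a2 and Slc43a2, against 15.1% of all genes tested) and 3 lower (Slc6a8, Slc7a4 and Slc38a5, against 9.49%) in SCARKO-jsd. An unadjusted p under 0.05 was reached by 7 members (22.6%), against 18% of all genes tested, and besides the 3 called genes these were Slc7a7, Slc36a1, Slc38a2 and Slc38a5. Both shares are near those of all genes. Among the 28 members that did not pass, the 95% interval on the brightest probe set excluded a 2-fold change in either direction for 26. For Slc1a4 and Slc38a1 it reached just past a 2-fold rise. This does not extend to other probe sets of these genes, such as 1420504_at of Slc6a14 (0.91 ± 0.23 SE). The dim members were Slc1a1, Slc1a2, Slc1a6 and Slc1a7, Slc3a1, 14 of Slc6a (Slc6a2, Slc6a3, Slc6a5, Slc6a11, Slc6a12, Slc6a13, Slc6a15, Slc6a16, Slc6a18, Slc6a19, Slc6a19os, Slc6a20a, Slc6a20b and Slc6a21), Slc7a3, Slc7a9, Slc7a10, Slc7a12, Slc7a13, Slc7a14 and Slc7a15, Slc36a1os, Slc36a2 and Slc36a3, Slc38a3 and Slc38a4, and Slc43a1. Of these 32, 31 differed by less than 0.5, and 0 of them passed with no filter on dim genes, where 3 of all 63 members did, against 2.26% of the 18194 genes.

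Of the 31 tested members, 15 had at least a pair of probe sets above the dim limit, and in 7 of these the probe sets differed in sign (Slc6a6, Slc6a9, Slc7a6os, Slc38a1, Slc38a2, Slc38a9 and Slc43a2). These signs were read with all arrays, and those of single probe sets without SCARKO-jsd 2 were not computed. That array was the lowest of all on the second bright probe set of Slc38a1 (8.14 on 1415903_at) and of Slc38a2 (8.97 on 1429593_at). The gap between a gene's lowest and highest log2 fold change had a median of 0.26 over the 15 genes. Slc43a2 had the widest gap, 1.22, and Slc6a8 (0.088) and Slc7a4 (0.089) were among the narrowest.

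Genes that handle the transported amino acids were read in the same fit, from lists drawn up for this tissue. Among 18 tested genes of the ATF4 amino acid response, 0 passed by limma and 1 had an unadjusted p under 0.05, against 18% of all genes tested. The list's median log2 fold change was 0.20 (0.10 without SCARKO-jsd 2), against 0.04 over all genes tested (0.003 without that array). Without SCARKO-jsd 1 a single gene of the list, Gars, rose, against 3.15% of all genes tested called in that fit. Gars is named after its value was seen. In the mTORC1 amino acid sensing list 2 of 22 fell and 20 did not pass. Lamtor3, a subunit of the complex that anchors mTORC1 to lysosomes, was at 10.31, 10.44 and 10.38 in SCARKO-jsd 1, 2 and 3, against 10.89, 10.83 and 10.92 in jsd 1, 2 and 3, a gap wider than the spread in either group (-0.50 ± 0.08 SE; limma, Benjamini-Hochberg adjusted p = 0.0204). Castor1, which senses arginine for mTORC1, was at 9.11, 9.04 and 9.08 in SCARKO-jsd 1, 2 and 3, against 9.55, 9.39 and 9.53 in jsd 1, 2 and 3 (-0.41 ± 0.09 SE; adjusted p = 0.0469). The share called was 9.09%, against 3.57% of all genes tested. Leaving out any of the other 5 arrays ended both calls, with a highest adjusted p of 0.112 for Lamtor3 and 0.21 for Castor1. Leaving out SCARKO-jsd 2 gave 3 falls of 22, with Rragd added, against 7.04% of all genes tested called in that fit. Rragd is named after its value was seen.

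Of 10 tested enzymes of glutamine and glutamate metabolism, 1 rose, 1 fell and 8 did not pass, a called share of 20%, against 3.57% of all genes tested. Abat, which breaks down the transmitter GABA, was at 10.54, 10.62 and 10.24 in SCARKO-jsd 1, 2 and 3, against 11.57, 11.70 and 11.21 in jsd 1, 2 and 3, a log2 fold change of -1.02 ± 0.16 (SE; limma, Benjamini-Hochberg adjusted p = 0.0158). Aldh18a1, which turns glutamate towards proline and ornithine, was at 8.99, 9.66 and 9.25 in SCARKO-jsd 1, 2 and 3, against 8.44, 8.57 and 8.47 in jsd 1, 2 and 3 (0.81 ± 0.16 SE; adjusted p = 0.0417). In both genes the groups did not overlap. Leaving out jsd 1, jsd 2 or SCARKO-jsd 3 ended both calls, and leaving out jsd 3 ended that of Aldh18a1, with a highest adjusted p of 0.0912 for Abat and 0.184 for Aldh18a1. Both held without SCARKO-jsd 2. No gene passed by limma among 13 of arginine and polyamine metabolism, 10 of serine and glycine, 10 of branched-chain amino acids, 7 of glutathione synthesis and 14 amino acid and peptide transporters of other families, where 2, 1, 1, 2 and 1 genes in that order had an unadjusted p under 0.05, against 18% of all genes tested. Without SCARKO-jsd 2, Mthfd2 of the serine and glycine list fell and Oplah of the glutathione list rose, both named after their values were seen. In that fit 7.04% of all genes tested were called.

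RNA of a whole testis does not tell fewer cells of a type from less RNA per cell, so markers of its cell types are given beside these results, with calls by limma and Benjamini-Hochberg adjustment over all genes tested. Of 15 Sertoli cell markers, 2 fell, 0 rose and 13 did not pass, a called share of 13.3%, against 3.57% of all genes tested. Those that fell were Tsx (log2 fold change -1.54, adjusted p = 0.000952) and the transcription factor Wt1 (-0.48, adjusted p = 0.0394). The groups did not overlap on 4 of the 15 markers (26.7%, against 24.6% of all genes tested), 2 higher and 2 lower in SCARKO-jsd. The mean log2 level over the list was 11.08 to 11.34 in SCARKO-jsd arrays and 11.17 to 11.37 in jsd arrays, which overlap. Of 11 tested markers of undifferentiated spermatogonia 4 were called (36.4%, against 3.57% of all genes tested), in opposite directions. The 2 that rose were the ubiquitin hydrolase Uchl1 (0.68) and the RNA-binding protein Dazl (0.82). The 2 that fell were the transcriptional regulator Id4 (-1.17) and the adhesion molecule Epcam (-0.53). The mean over this list was 7.79 to 8.11 in SCARKO-jsd arrays and 7.68 to 7.83 in jsd arrays. Among 6 tested markers of differentiating spermatogonia Stra8, which germ cells need to enter meiosis, rose (0.99), a called share of 16.7%, against 3.57%. The mean over these markers was 8.06 to 8.48 in SCARKO-jsd arrays and 7.75 to 8.0 in jsd arrays, without overlap. Of 20 measured genes of meiosis and spermatids, 14 were dim and 2 of the 6 tested rose (33.3%, against 3.57% called among all genes tested). These were Sycp3 of the synaptonemal complex (1.31) and Meig1 (0.84). The mean over the 20 genes was 5.85 to 6.16 in SCARKO-jsd arrays and 5.60 to 5.81 in jsd arrays, again without overlap. No marker of Leydig cells (6 tested), peritubular myoid cells (7) or macrophages (10) passed by limma. At an unadjusted p under 0.05 there were 0, 0 and 1, against 18% of all genes tested. Of 6 tested endothelial markers 1 fell (16.7%, against 3.57% of all genes tested), the growth factor receptor Kdr (-0.79). The other 5 had a positive value and did not pass. The median over this list was 0.23, and -0.006 without SCARKO-jsd 2. Its list mean was 7.15 to 7.82 in SCARKO-jsd arrays and 7.05 to 7.46 in jsd arrays, which overlap. Of 4 red blood cell genes 3 were dim, and Alas2, an enzyme of heme synthesis, fell (-1.21), while Hba-a1 (0.05), Slc4a1 (0.11) and Epb42 (-0.08) lay near 0 with overlapping groups.

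Most of these marker calls did not hold with each array left out in turn. Over all genes tested, 390 were called with all arrays. Without jsd 1, 2 and 3 in turn the count was 78, 119 and 239. Without SCARKO-jsd 1, 2 and 3 in turn the count was 344, 768 and 141. Tsx, Sycp3 and Alas2 were called with each array left out in turn. The call of Wt1 ended without any of the 5 arrays other than SCARKO-jsd 2. For undifferentiated spermatogonia, 0 were called without jsd 1, jsd 2 or SCARKO-jsd 3, and Id4 and Uchl1 alone without jsd 3. Stra8 lost its call when any jsd array or SCARKO-jsd 3 was left out, Meig1 when jsd 1, jsd 2 or SCARKO-jsd 1 was, and Kdr when any array but SCARKO-jsd 2 was. Leaving out SCARKO-jsd 1 gave 3 higher and 1 lower for undifferentiated and 3 higher for differentiating spermatogonia, against 3.15% of all genes tested called. Without SCARKO-jsd 2, 7.04% of all genes tested were called, against 3.57% with all arrays. In that fit the counts were 1 higher and 2 lower for Sertoli cells and 3 and 3 for undifferentiated spermatogonia. They were 2 and 0 for differentiating spermatogonia, and 3 and 0 for meiosis and spermatids. The part of these cells in the differences of Slc7a4, Slc6a8 and Slc43a2 was not tested.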

How the data were processed

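The authors deposited log2 values for each probe set. Per the submitters' processing notes they used RMA and the affy package, and no version is stated there. This method gives all arrays nearly 1 distribution, so a shift of most transcripts one way cannot be seen. Of 45101 probe sets, 34958 had 1 gene symbol in GEO's platform annotation, 932 several and 9211 none. Each gene was read at its brightest single-symbol probe set and the dimmest 40% of 18194 genes were left out. The remaining 10916 were fitted with limma 3.58.1 in R 4.3.3 (lmFit and eBayes, genotype as the only term, two-sided, Benjamini-Hochberg over all tested genes), a fit tested on simulated data. Single probe sets were fitted likewise over those above the same limit. The members and lists were chosen with earlier results of these data known. Named by rule were called members, those whose groups did not overlap, the 3 brightest, each family's largest change, and up to 4 called genes per list; others are named to account for every member. Probe sets differ in affinity, so levels are compared within a probe set only. The target of the conditional knockout is not reported here. Same-numbered arrays were not taken as pairs. Their deviations from the group means correlated at -0.21, 0.23 and 0.24, within the range for arrays of different numbers (-0.388 to 0.345). With 3 arrays in each group such correlations cannot settle whether arrays were paired. Alternatives covered the dim filter, probe sets, normalization, variance model, array weights, a replicate block, thresholds and left-out arrays. The number of arrays limits the precision.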

Additional observations from a re-analysis of the deposited data

How the results depend on the processing

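Of the members, 3 were called with no filter on dim genes, with the lowest 60% left out, with every probe set by itself, with median centring, with a further quantile normalization and with trend and robust. With the replicate block 3 were called as well, where all genes called numbered 397 against 390, and the block changed no call of a member. The members called numbered 2 with the mean of probe sets, 4 with arrayWeights (whose estimate stopped before its tolerance was reached), 1 at an adjusted p threshold of 0.01, and 1 to 4 with each array left out: 1 without jsd 1 and 4 without SCARKO-jsd 2. Over all genes the count of 390 was 194 with every probe set by itself, 860 with arrayWeights, 111 at a threshold of 0.01, 728 at 0.1, and 78 (without jsd 1) to 768 (without SCARKO-jsd 2) with each array left out. Slc3a2, near 0 throughout, turned negative with a further quantile normalization (-0.016) and arrayWeights (-0.070), and lay between -0.082 and 0.091 with each array left out. The left-out range was -0.18 to 0.021 for Slc7a1 and -0.19 to 0.0002 for Slc7a5. Of the 31 tested members, 20 kept their sign in each setting tried, and besides Slc3a2, Slc7a1 and Slc7a5 the sign turned in at least 1 setting for Slc1a5, Slc6a6, Slc7a6, Slc7a8, Slc7a11, Slc36a4, Slc38a9 and Slc43a3. The cause of these changes was not tested, beyond the fewer arrays or the other threshold in each.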
